A study of Mus musculus with 19 samples.

Results

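The 10 genes described here (*Atf4*, *Atf5*, *Ddit3*, *Ddit4*, *Trib3*, *Chac1*, *Asns*, *Psat1*, *Phgdh* and *Shmt2*) belong to the integrated stress response, and were taken by gene symbol from the 51912 genes counted in each library. The cerebral cortex of mouse embryos at E13.5 was profiled by unique molecular identifier RNA-seq (Click-seq), with 1 library per embryo. The 7 ctrl embryos were labelled only as controls, and the alleles they carry are not given in the sources used here. The 5 cKO-E embryos carried *Emx1* Cre/+ with *Ino80* fl/fl, and the 7 dKO-E embryos carried the same alleles and *Trp53* fl/fl in addition. All embryos had a mixed C57BL/6 and 129 background. *Ino80* encodes the ATPase of a chromatin remodeling complex, and *Trp53* encodes p53. *Emx1*-Cre acts in the progenitors of the dorsal forebrain and in the cells they give rise to, so that blood vessels, microglia and interneurons arriving from the ventral forebrain kept both genes in the mutants.

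The integrated stress response is a shared answer of cells to misfolded protein, lack of amino acids, lack of heme or viral RNA. Each of these activates a kinase that phosphorylates the translation factor eIF2, which slows protein synthesis in general but increases translation of a few mRNAs, among them those of the transcription factors ATF4 and ATF5. ATF4 then activates genes for amino acid uptake and synthesis, for the serine and one-carbon pathway and, under lasting stress, the factor CHOP (encoded by *Ddit3*) and other genes of growth arrest and cell death. Because ATF4 and ATF5 are controlled largely at translation, the mRNA levels of their target genes are the usual transcriptional readout.

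ATF4 binds with C/EBP proteins at a composite element, here searched for as TGATGNAA on both strands from 250 bases before to 50 bases after each RefSeq transcript start (GRCm38.p6). All 10 genes had a RefSeq promoter, and 3 of them (*Trib3*, *Chac1* and *Asns*) held the element. It was present in 4.511% of the 27025 genes with a promoter, and in 10 of 25 other ATF4 targets. The 3 sites are shown with their neighboring bases as matches to this element, and whether ATF4 acts through them was not tested. Each is written in the direction of its gene, with the element in capitals (read as TTNCATCA where it lies on the opposite strand).
*Trib3*, chr2:152344028-152344057, minus strand: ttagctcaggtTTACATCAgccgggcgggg
*Chac1*, chr2:119351038-119351067, plus strand: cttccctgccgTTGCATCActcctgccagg
*Asns*, chr6:7693214-7693243, minus strand: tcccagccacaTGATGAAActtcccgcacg
The first base of the element lay at position 15 after the RefSeq start in *Trib3*, and at positions -193 in *Chac1* and -23 in *Asns*, before it. The GENCODE starts used here for gene positions differ, and put the *Trib3* element before the gene and the *Asns* element within it. A match is a sequence only, and binding was not measured in these libraries.

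The libraries held 820915 to 8095810 counts on genes (median 2952788), and expression is given in CPM (counts per 1000000 counts on genes after TMM normalization over all 19 libraries). In this unit 3 counts stood for between 0.368 and 3.71 CPM, depending on depth. *Ino80* itself was counted at a higher level in the mutants (121 ± 8.69 CPM in ctrl, 166 ± 14.7 in cKO-E and 186 ± 13.7 in dKO-E), and since counts are summed over the whole gene they do not check the loss of the floxed exons. *Trp53* stood at 43.7 ± 5.18 CPM in ctrl, 39.2 ± 4.66 in cKO-E and 34.6 ± 4.94 in dKO-E. Among the cell type markers, the summed level of 13 microglia genes was 6.45 to 17.8 CPM in ctrl, 31.8 to 46.9 in cKO-E and 8.73 to 11.9 in dKO-E, and the defining genes *Tmem119* and *Aif1* were at 0 in ctrl. The sum of 8 interneuron lineage genes was 10.1 to 89.5 CPM in ctrl, 67.6 to 125 in cKO-E and 30.0 to 74.5 in dKO-E. The sum of 10 cortical neuron genes was 3079 to 4754, 3710 to 4628 and 2579 to 3670 CPM, and that of 12 cortical progenitor genes 1411 to 1550, 1180 to 1531 and 1238 to 1503 CPM. *Tubb3* and *Sox2*, which define the last 2 lists, were listed at 0 in every library, while their other members were counted. Endothelial, red blood cell and meninges markers overlapped between the groups. In bulk cortex, fewer cells of a type and less RNA per cell cannot be told apart.

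In ctrl cortex 8 of the 10 genes were expressed in every embryo, and *Chac1* and *Trib3* were not detectable or close to it. Levels can be compared between genes only per length, as CPM per kb of annotated exon. On this scale *Psat1* was highest at 19.6 ± 4.22 (SD, n = 7), followed by *Atf4* at 15.7 ± 1.95 and *Phgdh* at 13.3 ± 2.52. *Ddit4* at 7.90 ± 1.51 and *Shmt2* at 7.41 ± 1.21 came next, then *Ddit3* at 5.2 ± 0.979, *Atf5* at 5.10 ± 1.07 and *Asns* at 3.85 ± 0.985. Each of these overlapped its neighbor in the order between embryos. *Chac1* at 0.299 ± 0.412 and *Trib3* at 0.0308 ± 0.0814 CPM per kb were below the lowest *Asns* value in every ctrl embryo. In dKO-E the first place was held by *Atf4* (17.7 ± 2.89, SD, n = 7) with *Psat1* second (17.4 ± 3.01), within overlapping ranges. There *Shmt2* (9.57 ± 1.80) stood 1 place above its position in ctrl, and its lowest embryo (7.52) was above the highest *Ddit4* embryo (6.65).

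**Figure D1:**
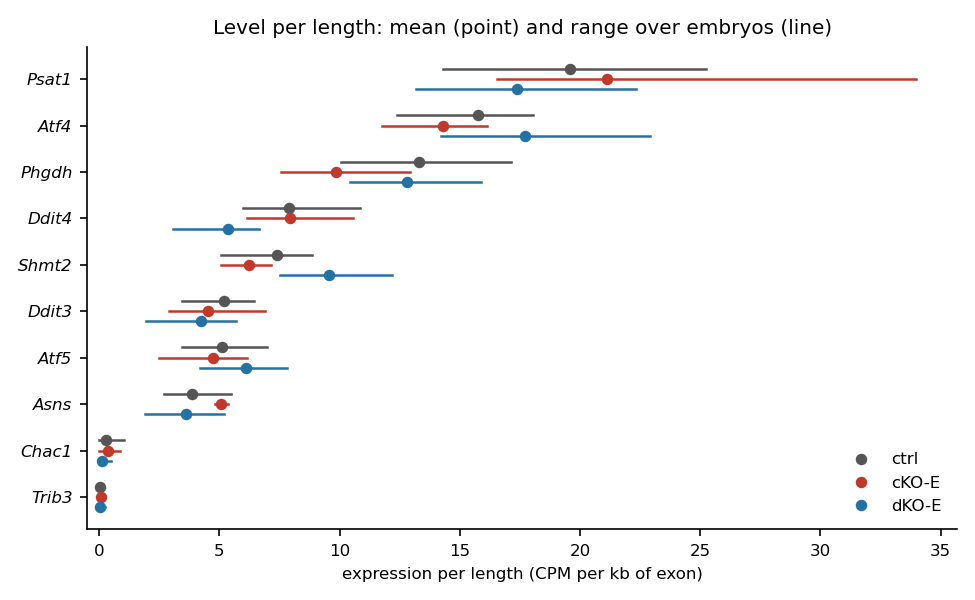
Expression per length of the 10 genes in CPM per kb of exon, with the mean (point) and the range over embryos (line) in ctrl (n = 7), cKO-E (n = 5) and dKO-E (n = 7). *Psat1*, *Atf4* and *Phgdh* were the 3 highest in each group, and *Chac1* and *Trib3* lay near 0 in each.

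Of the 8 genes with enough counts to be tested, 0 differed between cKO-E and ctrl at the false discovery rate (FDR) of 0.001 used for comparisons with ctrl, beside 3.38% of all 11660 genes tested (edgeR's quasi-likelihood test). At an FDR of 0.05 the count was also 0, beside 17.2% of all genes. An unadjusted p under 0.05, which 29.8% of all genes had, was reached by 2, *Asns* (0.45) and *Phgdh* (-0.36). DESeq2 and edgeR's likelihood-ratio test also called 0 of the 8. In none of them were the 2 groups apart, beside 8.77% of all genes whose groups did not overlap. The 95% intervals of the 8 log2 fold changes lay between -0.66 and 0.77, so that a change of 2-fold in either direction was outside each of them. The median of the 8 was -0.10, beside 0.02 for all genes.

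In dKO-E against ctrl, 0 of the 8 genes passed an FDR of 0.001, beside 2.58% of 11381 genes tested, and DESeq2 and the likelihood-ratio test also called 0. At an FDR of 0.05, which 15.5% of genes passed, 2 of the 8 differed: *Ddit4* was lower and *Shmt2* was higher. Together with *Atf5*, 3 genes had an unadjusted p under 0.05, beside 29.6% of all genes. None of the 8 had groups that did not overlap, beside 4.45% of all genes. The median log2 fold change of the 8 was -0.06, beside 0.01 for all genes.

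The mutants were also compared with each other at an FDR of 0.05, which 15.0% of 11746 genes passed, to see whether a gene differed with the loss of *Trp53* on top of *Ino80*. Of the 8 genes, 1 was called: *Shmt2* was higher in dKO-E, as were 5.59% of all genes. An unadjusted p under 0.05, which 27.5% of genes had, was reached by *Atf4*, *Phgdh* and *Shmt2* (log2 fold changes above 0) and by *Ddit4* and *Asns* (below 0). *Shmt2* was also the only one of the 8 whose groups did not overlap, beside 7.09% of all genes in that comparison. The comparisons share libraries: both with ctrl use the same 7 ctrl embryos, and the 3 comparisons are therefore not independent of each other.

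**Figure D2:**
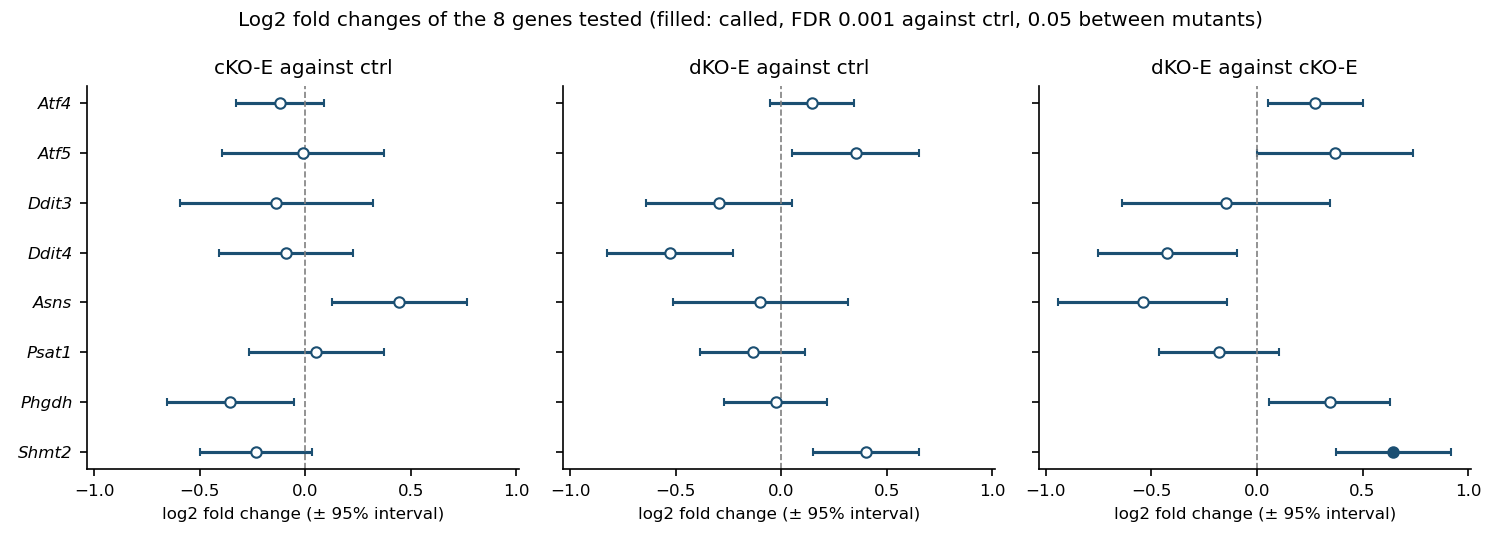
Log2 fold change with its approximate 95% interval for the 8 genes tested, in cKO-E against ctrl, dKO-E against ctrl and dKO-E against cKO-E. Intervals were taken from a normal distribution, and one that leaves out 0 is not a test result. The filled point is *Shmt2* in dKO-E against cKO-E (0.65), the only call among the 24 values. Calls were made at an FDR of 0.001 against ctrl and 0.05 between the mutants, by edgeR's quasi-likelihood test. In dKO-E against ctrl, *Ddit4* (adjusted p = 0.0243) and *Shmt2* (adjusted p = 0.0387) also passed 0.05. *Shmt2* between the mutants (adjusted p = 0.00352) did not pass 0.001, so that it stands alone only under these unlike thresholds. All intervals lie within 1 log2 unit of 0.

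Among the transcription factors, *Atf4* (ENSMUSG00000042406.7, chromosome 15 from 80255184 to 80257541, GRCm38) encodes the central factor of the response. Its expression in ctrl ran from 29.2 to 42.6 CPM with a median of 38.7. In cKO-E it was 27.7, 38.0, 37.2, 32.1 and 33.8 CPM in embryos A to E, and in dKO-E it ran from 33.5 to 54.0 with a median of 41.8. The 3 groups overlapped, with 1 cKO-E embryo below all ctrl embryos and 3 dKO-E embryos above them. Its log2 fold change was -0.12 (adjusted p = 0.505, SE 0.11) in cKO-E and 0.15 (adjusted p = 0.359, SE 0.10) in dKO-E against ctrl, by edgeR's quasi-likelihood test as for all adjusted p values below. Between the mutants it was 0.28 (adjusted p = 0.121, SE 0.11), and 4 of 7 dKO-E embryos were above every cKO-E embryo.

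*Atf5* (ENSMUSG00000038539.15, chromosome 7 from 44812256 to 44816658) encodes a related factor whose mRNA is translated under the same conditions. It had 6.87 to 13.9 CPM in ctrl, with a median of 10.5. The cKO-E embryos A to E had 12.2, 10.1, 7.66, 4.94 and 12.2 CPM, and the dKO-E embryos 8.36 to 15.5 with a median of 12.6. The lowest cKO-E value was that of the shallowest library, where it rests on 4 counts. Log2 fold changes were -0.01 (adjusted p = 0.99, SE 0.20) in cKO-E, 0.35 (adjusted p = 0.13, SE 0.15) in dKO-E and 0.37 (adjusted p = 0.212, SE 0.19) between the mutants, so none was a call. *Atf5* overlaps *Nup62* and *Il4i1* on the other strand, and the strand setting of the counting is not given in the sources used here.

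*Ddit3* (ENSMUSG00000025408.15, chromosome 10 from 127290774 to 127296288) encodes CHOP, which accompanies the step from adaptation to cell death. It was low, at 5.88 to 11.1 CPM in ctrl with a median of 8.91. The cKO-E embryos fell apart into a pair at 11.8 (B) and 11.3 CPM (C), above all ctrl embryos, and 3 at 5.28 (A), 4.94 (D) and 5.40 CPM (E), below all of them. The value of D rests on 4 counts in the shallowest library, and those of A and E on 16 counts each. Its SD of 3.49 CPM in cKO-E (n = 5) was larger than those of 1.68 in ctrl and 2.15 in dKO-E (n = 7 each), a difference in spread that was not tested. In dKO-E it had 3.35 to 9.73 CPM with a median of 7.46, the lowest value resting on 4 counts. None of the log2 fold changes was a call, at -0.14 (adjusted p = 0.756, SE 0.23) in cKO-E, -0.30 (adjusted p = 0.28, SE 0.18) in dKO-E and -0.15 (adjusted p = 0.77, SE 0.25) between the mutants. *Ddit3* overlaps *Mars* (methionyl-tRNA synthetase) and *Gm4189* on the other strand and, in the annotation used here, another entry of the same symbol on its own strand, so that its reads are uncertain where they overlap. *Mars* stood at 45.9 ± 6.08 CPM in ctrl, 45.8 ± 4.17 in cKO-E and 55.9 ± 5.76 in dKO-E.

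**Figure D3:**
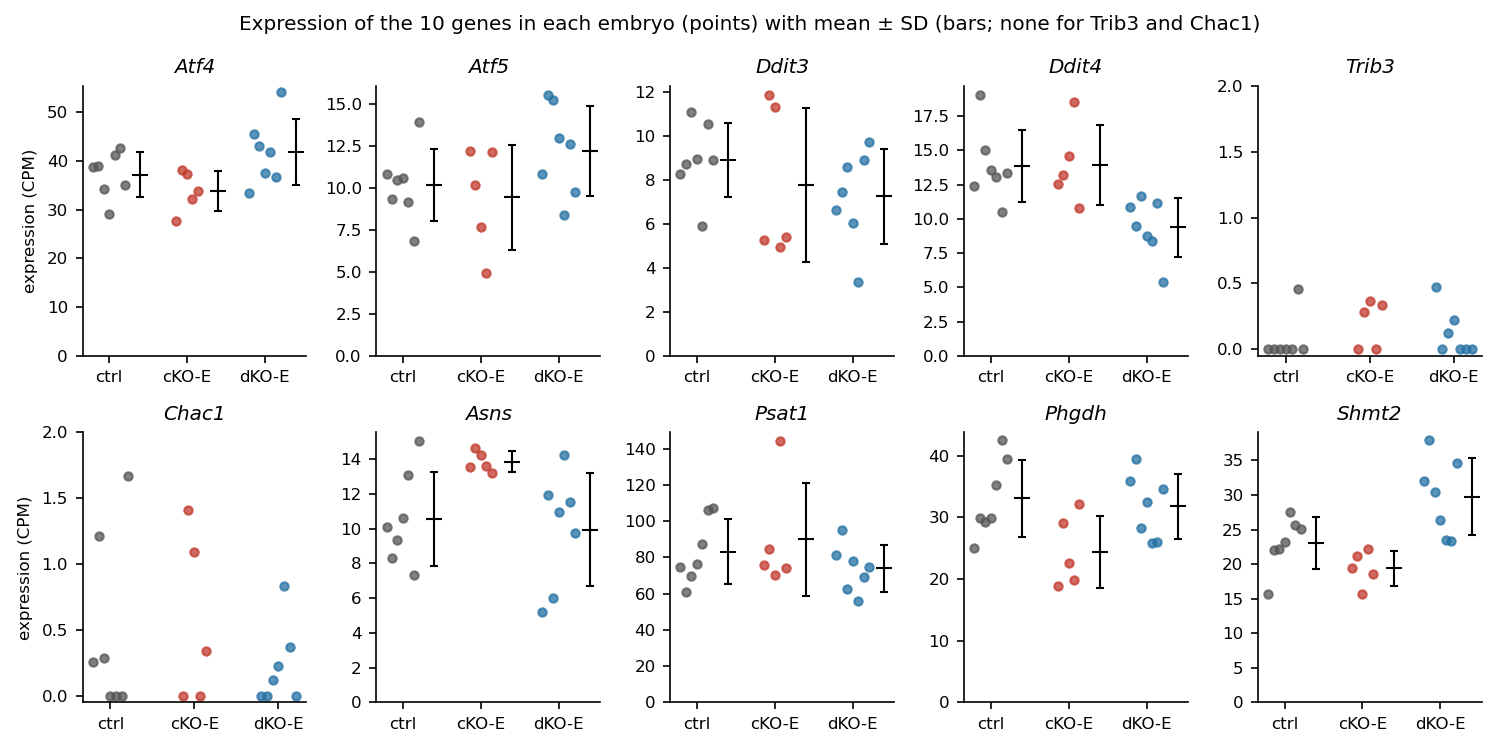
Expression in CPM of each of the 10 genes in every embryo (points) of ctrl (n = 7), cKO-E (n = 5) and dKO-E (n = 7), with mean ± SD beside each group except for *Trib3* and *Chac1*, which were at or near 0 counts. For *Shmt2* all dKO-E embryos lie above all cKO-E embryos, for *Ddit4* 4 dKO-E embryos lie below all ctrl embryos, and for *Psat1* 1 cKO-E embryo stands alone at 145 CPM.

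*Ddit4* (ENSMUSG00000020108.4, chromosome 10 from 59949669 to 59951834) encodes REDD1, an inhibitor of the growth kinase complex mTORC1 that is known to be induced by ATF4, by lack of oxygen and by p53. In ctrl it had 10.5 to 19.0 CPM with a median of 13.4, and in cKO-E embryos A to E 12.5, 13.2, 14.6, 18.5 and 10.8 CPM. The cKO-E range lay within that of ctrl, with a log2 fold change of -0.09 (95% interval -0.41 to 0.23, adjusted p = 0.775). In dKO-E it had 5.40 to 11.7 CPM with a median of 9.48, and 4 of the 7 embryos were below every ctrl embryo.

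The log2 fold change of *Ddit4* in dKO-E against ctrl was -0.53 (adjusted p = 0.0243, SE 0.15), which passed an FDR of 0.05 and not 0.001. Without ctrl embryo B or C or dKO-E embryo D it did not pass 0.05 either (adjusted p of up to 0.0764). Against cKO-E it was -0.43 (adjusted p = 0.0996, SE 0.17), not a call, with 4 of 7 dKO-E embryos below every cKO-E embryo. In litter 1, the only litter with both genotypes, the 2 ctrl embryos had 12.4 and 19.0 CPM and the 3 dKO-E embryos 9.48 to 11.7 CPM. In litter 2, which held dKO-E embryos only, values were 5.40 to 11.1 CPM. With litter as a covariate the log2 fold change was -0.58 and its adjusted p was 0.132. In batch 1 the values were 12.4 to 19.0 CPM in ctrl and 8.73 to 11.7 in dKO-E (4 embryos each), without overlap, and in batch 2 they were 10.5 to 13.4 and 5.40 to 11.1 CPM, with overlap. The sum of the cortical neuron markers was also lower in dKO-E, with overlap, and its part in the *Ddit4* values was not tested.

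*Trib3* (ENSMUSG00000032715.9, chromosome 2 from 152337422 to 152344032) encodes a pseudokinase that ATF4 and CHOP induce and that dampens ATF4 in turn, and it is among the most responsive targets in stressed cells. It had at most 1 count in any library, and 0 counts in 12 of 19. The counts in all were 1 in ctrl, 3 in cKO-E and 3 in dKO-E. *Chac1* (ENSMUSG00000027313.3, chromosome 2 from 119351229 to 119354381), which encodes an enzyme that breaks down glutathione, had 0 to 6 counts in ctrl (11 in all), 0 to 5 in cKO-E (9 in all) and 0 or 1 in dKO-E (4 in all). Both genes were too low for the test across genes, and the 6 exact two-sided permutation tests of their mean CPM gave unadjusted p from 0.222 to 0.893. A difference was not detectable at this depth, where 17 of 19 libraries held 3 counts of *Chac1* or fewer. Both carry the ATF4 element shown above.

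*Chac1* lies beside the targeted gene: its end is 18661 bases from *Ino80* (chromosome 2 from 119373042 to 119477687), and it was looked at for that reason too. Of the genes within 100 kb of *Ino80*, *Chp1* and *Vps18* were tested, and 0 of the 2 was called in any comparison. Their log2 fold changes lay between -0.08 and 0.15. Over the same 3 comparisons *Ino80* had log2 fold changes of 0.48 and 0.62 against ctrl and 0.15 between the mutants.

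Among the enzymes, *Asns* (ENSMUSG00000029752.12, chromosome 6 from 7675169 to 7693254) encodes asparagine synthetase and is a classical gene of the amino acid branch. In ctrl it had 7.32 to 15.0 CPM with a median of 10.1. In cKO-E embryos A to E it had 13.5, 14.7, 14.2, 13.6 and 13.2 CPM, a narrow band (SD 0.594, n = 5) at the upper end of the ctrl range, which spanned it. In dKO-E it had 5.19 to 14.2 CPM with a median of 11, and 6 of 7 embryos were below every cKO-E embryo.

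The log2 fold change of *Asns* in cKO-E was 0.45 (adjusted p = 0.0712, SE 0.16), which did not pass an FDR of 0.05. It passed 0.05, though not 0.001, with the likelihood-ratio test (adjusted p = 0.0293), with at least 10 counts in every library (0.0406), in batch 1 alone (0.56, adjusted p = 0.0408), with the letter as a replicate block (0.58, adjusted p = 0.0444) and without ctrl embryo I (0.0232). It was 0.40 with litter as a covariate (adjusted p = 0.262) and 0.20 in batch 2 alone (adjusted p = 0.817). In dKO-E against ctrl it was -0.10 (adjusted p = 0.805, SE 0.21), and between the mutants -0.54 (adjusted p = 0.0847, SE 0.20). In litters with both ctrl and cKO-E embryos, the cKO-E embryo had 14.7 CPM against 9.36 in litter 4, 14.2 against 10.6 and 13.1 in litter 5, and 13.2 against 7.32 and 15.0 in litter 7. The cKO-E embryo was thus above its ctrl littermates in 2 of 3 litters and between them in the other.

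*Phgdh* (ENSMUSG00000053398.11, chromosome 3 from 98313170 to 98339990) and *Psat1* (ENSMUSG00000024640.9, chromosome 19 from 15904678 to 15947337) encode the first and second enzymes that make serine from a product of glycolysis. *Phgdh* had 25.0 to 42.6 CPM in ctrl with a median of 30.0, and 18.8, 29.0, 22.6, 19.8 and 32.1 CPM in cKO-E embryos A to E. In dKO-E it had 25.9 to 39.5 CPM with a median of 32.5. The groups overlapped, with 3 of 5 cKO-E embryos below all ctrl embryos.

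The log2 fold change of *Phgdh* was -0.36 (adjusted p = 0.126, SE 0.15) in cKO-E and -0.03 (adjusted p = 0.927, SE 0.12) in dKO-E. Between the mutants it was 0.34 (adjusted p = 0.129, SE 0.15), not a call. With sex as a covariate this difference was 0.49 with an adjusted p of 0.0189, and without cKO-E embryo E it was 0.46 with an adjusted p of 0.0455, both past 0.05. In batch 2 alone it was 0.01 (adjusted p = 0.99), and no other setting or left-out embryo made it a call. Its 3 cKO-E embryos with littermates had 29.0 CPM against 29.2 (litter 4), 22.6 against 29.8 and 35.3 (litter 5) and 32.1 against 39.5 and 42.6 (litter 7), below the ctrl littermates in each.

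*Psat1* had 60.9 to 107 CPM in ctrl with a median of 76.3, and 56.0 to 95 in dKO-E with a median of 74.6. In cKO-E it had 75.9, 84.5, 70.4, 145 and 74.3 CPM in embryos A to E. Embryo D, the shallowest library, stood above all others, while the remaining 4 lay within the ctrl range. Log2 fold changes were 0.05 (adjusted p = 0.882, SE 0.16) in cKO-E, -0.14 (adjusted p = 0.513, SE 0.13) in dKO-E and -0.18 (adjusted p = 0.467, SE 0.15) between the mutants. Without embryo D, the value in cKO-E was -0.10 with an adjusted p of 0.698. *Psat1* overlaps the processed pseudogene *Gm3329* on the other strand.

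*Shmt2* (ENSMUSG00000025403.5, chromosome 10 from 127517123 to 127522444) encodes the mitochondrial enzyme that splits serine into glycine and a one-carbon unit. In ctrl it had 15.7 to 27.5 CPM with a median of 23.2. The cKO-E embryos A to E had 19.5, 21.1, 15.7, 22.2 and 18.6 CPM, and the dKO-E embryos 32.1, 37.9, 30.4, 26.4, 23.4, 23.4 and 34.6 CPM in A to G. All 7 dKO-E embryos were above all 5 cKO-E embryos, while 4 of the 7 were above every ctrl embryo.

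*Shmt2* exceeded its cKO-E level in dKO-E by 0.65 on the log2 scale (95% interval 0.37 to 0.92, adjusted p = 0.00352, SE 0.14), or 1.57-fold. Against ctrl it was 0.40 (adjusted p = 0.0387, SE 0.13) in dKO-E, past an FDR of 0.05 and not 0.001, and -0.23 (adjusted p = 0.269, SE 0.14) in cKO-E. The dKO-E value did not pass 0.05 without ctrl embryo A, B, C or D or dKO-E embryo A, B, C or G (adjusted p of up to 0.0927). Over other settings it ranged from 0.06 in batch 2 alone (adjusted p = 0.928) to 0.80 with litter as a covariate (adjusted p = 0.0158). Means were 23.0 ± 3.77 CPM in ctrl (SD, n = 7), 19.4 ± 2.53 in cKO-E (SD, n = 5) and 29.7 ± 5.59 in dKO-E (SD, n = 7). When single embryos were left out, the difference between the mutants was 0.56 to 0.70 and a call in 12 of 12 fits, with adjusted p from 0.00209 to 0.0166.

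The mutants differed in sex and litter, and the *Shmt2* values were therefore also read within each. Of the cKO-E embryos 4 were female and 1 was male, and of the dKO-E embryos 2 were female and 5 were male. Among females, cKO-E embryos had 18.6 to 22.2 CPM (n = 4) and dKO-E embryos 32.1 and 37.9. Among males, the cKO-E embryo had 15.7 CPM and dKO-E embryos 23.4 to 34.6 (n = 5). With sex as a covariate the log2 fold change was 0.82 (adjusted p = 0.000121). In batch 1 of the labels the cKO-E embryos had 15.7 to 21.1 CPM (n = 3) and the dKO-E embryos 26.4 to 37.9 (n = 4), a log2 fold change of 0.75 (adjusted p = 0.014) in a fit of that batch. In batch 2, with 2 embryos each, they had 18.6 and 22.2 against 23.4 and 34.6 CPM, a log2 fold change of 0.46 (adjusted p = 0.577), which was not a call.

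No litter held both mutants, so that for the difference between them litter and genotype cannot be told apart. Against ctrl, litter 1 held 2 ctrl embryos at 15.7 and 22.1 CPM and 3 dKO-E embryos at 30.4, 32.1 and 37.9 CPM. The ctrl embryo at 15.7 CPM was the lowest of its group. By batch, ctrl and dKO-E embryos had 15.7 to 23.2 and 26.4 to 37.9 CPM in batch 1, without overlap, and 25.0 to 27.5 and 23.4 to 34.6 CPM in batch 2, with overlap. In litter 2 the dKO-E embryos had 23.4 to 34.6 CPM with no ctrl littermate. The cKO-E embryos were below their ctrl littermates in each of 3 litters, at 21.1 against 22.1 CPM (litter 4), 15.7 against 23.2 and 27.5 (litter 5) and 18.6 against 25.0 and 25.6 (litter 7). The sums of the microglia, interneuron and cortical neuron markers given above were lower in the double mutants too, without overlap for microglia and neurons. Of 11 progenitor markers tested in that comparison, *Nes* was called higher (0.29, adjusted p = 0.0336) and *Fabp7* lower (-0.45, adjusted p = 0.0143). Log2 fold changes were above 0 for 7 of them (up to 0.48) and below 0 for 4 (down to -0.94). An unadjusted p under 0.05 was reached by 4 of those above and 3 of those below 0, beside 27.5% of all genes. The part of these markers in the *Shmt2* difference was not tested. *Shmt2* overlaps *Ndufa4l2* on the other strand.

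**Figure D4:**
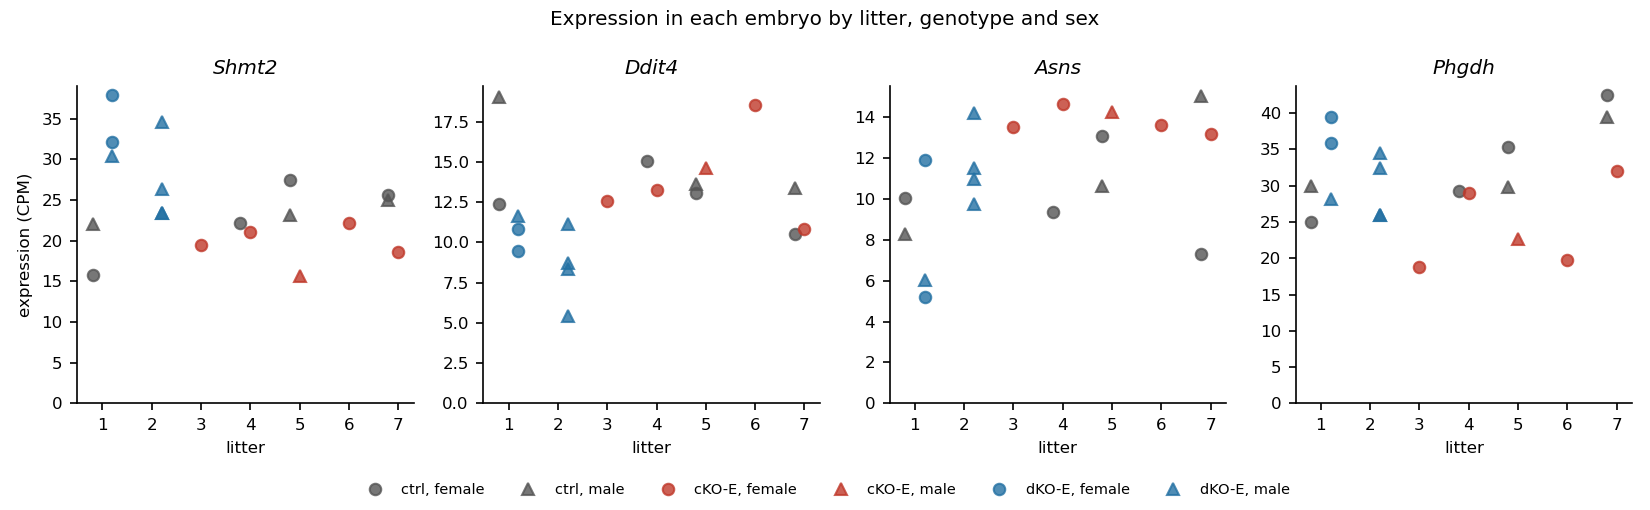
Expression of *Shmt2*, *Ddit4*, *Asns* and *Phgdh* in CPM in each embryo by litter (1 to 7), colored by genotype, with females as circles and males as triangles. In litter 1 the 3 dKO-E embryos lie above both ctrl embryos for *Shmt2* and below both for *Ddit4*, and no litter holds both cKO-E and dKO-E embryos.

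The 3 serine enzymes went together between embryos of a genotype to some extent. After group means had been removed, Pearson's r of log2(CPM + 0.5) over the 19 libraries was 0.60 for *Psat1* and *Shmt2*, 0.60 for *Phgdh* and *Shmt2*, and 0.36 for *Psat1* and *Phgdh*. *Atf4* had r of 0.31 with *Ddit3*, 0.10 with *Asns*, 0.03 with *Psat1*, 0.20 with *Shmt2*, 0.36 with *Phgdh* and -0.43 with *Ddit4*. These values describe libraries that share depth and dissection, and carry no test. Among 7386 genes with a mean of at least 20 CPM, the 2 genes most alike in this measure were *Iqgap3* (r = 0.94) and *Espl1* (0.88) for *Psat1* and *E2f2* (0.87) and *Rrm1* (0.85) for *Phgdh*, and the gene most alike *Shmt2* was *Eif3m* (0.79). For *Asns* they were *Stx17* (0.90) and *Tatdn2* (0.76), for *Ddit4* *Ripor2* (0.88) and *Mmd2* (0.87), and for *Ddit3* *Zfp329* (0.80) and *Bod1* (0.77). For *Atf4* they were *Rpl35* (0.82) and *Hist2h2ac* (0.78), and for *Atf5* *Psma2* (0.80) and *Sf3a1* (0.78).

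The rest of the pathway was read from lists of related genes. Among 31 other ATF4 targets, 21 were tested in cKO-E against ctrl, and 1 was called higher and 1 lower, beside 1.06% and 2.32% of all genes. The gene called higher was *Sesn2*, an inhibitor of mTORC1 that p53 also induces, at 2.26 ± 0.960 CPM in ctrl (SD, n = 7) and 11.1 ± 1.36 in cKO-E (SD, n = 5), a log2 fold change of 2.35 (adjusted p = 1.85e-05, SE 0.27). The gene called lower was *Gpt2*, a mitochondrial alanine aminotransferase, at 35.2 ± 1.90 and 23.2 ± 2.60 CPM (log2 fold change -0.56, adjusted p = 0.000431, SE 0.09). The *Gpt2* call was lost without ctrl embryo A, C, D or I and without cKO-E embryo A, C, D or E (8 of 12 embryos), with adjusted p of up to 0.00212. Of the cKO-E embryos 3 shared litters with ctrl, and with litter as a covariate neither gene passed 0.001 (*Sesn2* 2.17, adjusted p = 0.00163, and *Gpt2* -0.61, adjusted p = 0.00587), nor did either in batch 2 alone (adjusted p = 0.00978 and 0.0324), so that the list then held 0 calls. At an FDR of 0.05, which 17.2% of genes passed, 1 gene of the list was higher and 3 were lower in cKO-E. Beside *Gpt2*, those lower were *Stc2* (-1.40, adjusted p = 0.0102, SE 0.35) and *Pck2* (-0.88, adjusted p = 0.0242, SE 0.26). For both, all 5 cKO-E embryos were below every ctrl embryo. Levels were low, at 3.94 and 1.17 CPM for *Stc2* and 7.47 and 4.03 CPM for *Pck2* in ctrl and cKO-E. The median of the list was 0.01, beside 0.02 for all genes. *Sesn2* was in the list of 10 p53 targets as well, of which 6 were called higher in cKO-E, 0 of the 6 tested were called in dKO-E against ctrl (3 had an unadjusted p under 0.05), and 7 were called lower in dKO-E than cKO-E.

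In dKO-E against ctrl, 0 of 20 other ATF4 targets tested was called, and 0 by DESeq2 or the likelihood-ratio test. At an unadjusted p under 0.05, 3 were above and 3 below 0, beside 29.6% of all genes in both directions. The median was 0.01 for both the list and all genes. *Sesn2* was too low to be tested there, at 1.55 ± 0.848 CPM in dKO-E (SD, n = 7). Between the mutants 6 of 23 were called, 2 higher and 4 lower, beside 5.59% and 9.42% of all genes. Higher in dKO-E were *Gpt2* (0.37, adjusted p = 0.0278, SE 0.11) and the amino acid transporter *Slc38a2* (0.24, adjusted p = 0.0272, SE 0.07). Lower in dKO-E were *Sesn2* (-3.05, adjusted p = 5.53e-07, SE 0.27), the cystine transporter *Slc7a11* (-1.14, adjusted p = 0.0363, SE 0.36), the factor *Jdp2* (-0.62, adjusted p = 0.0484, SE 0.21) and the lipoprotein receptor *Vldlr* (-0.46, adjusted p = 0.0363, SE 0.14). With batch as a covariate 1 of 23 was called. The *Sesn2* call held with each of the 12 embryos left out, while the others were lost without 3 (*Gpt2*), 4 (*Slc38a2*), 5 (*Vldlr*), 9 (*Slc7a11*, tested in 11 of the 12 fits) or 10 (*Jdp2*) of them.

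The arm upstream of ATF4 was read in a list of 21 genes for the eIF2 kinases, eIF2, eIF2B and the phosphatases. It held 0 calls in cKO-E against ctrl and 0 in dKO-E against ctrl. An unadjusted p under 0.05 was reached by 8 and 5 genes, beside 29.8% and 29.6% of all genes. DESeq2 called 0 in both, and the likelihood-ratio test 0 and 1. Between the mutants 1 was called, *Nck1*, an adaptor protein that binds the eIF2 phosphatase. It was higher in dKO-E (0.31, adjusted p = 0.0149, SE 0.08), as were 5.59% of all genes. This call was lost without cKO-E embryo B (adjusted p = 0.0613). The medians of the list were -0.07, 0.01 and 0.05 in the 3 comparisons, beside 0.02, 0.01 and 0.02 for all genes.

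The list of 17 further genes of serine, glycine and one-carbon metabolism, to which *Shmt2*, *Phgdh* and *Psat1* lead, had 0 calls among 16 tested in each comparison with ctrl. An unadjusted p under 0.05 was reached by 4 and 3 genes, beside 29.8% and 29.6% of all genes. DESeq2 called 0 in both, and the likelihood-ratio test 1 and 0. At an FDR of 0.05, *Gldc* (-0.51, adjusted p = 0.00507, SE 0.11) and *Mthfd2l* (-0.27, adjusted p = 0.00599, SE 0.06) were lower in cKO-E than in ctrl. Between the mutants 4 of 17 were called, beside 15.0% of all genes, and this count ranged from 0 (in batch 2 alone, and at an FDR of 0.01) to 5 over other settings. *Gldc*, a part of the enzyme complex that cleaves glycine, was higher in dKO-E (35.4 ± 6.78 CPM in cKO-E and 48.2 ± 5.78 in dKO-E, log2 fold change 0.43, adjusted p = 0.0173, SE 0.12), and so was *Mthfd2l*, a mitochondrial folate enzyme (0.25, adjusted p = 0.0269, SE 0.07). The folate dehydrogenases *Aldh1l2* (mitochondrial, -0.59, adjusted p = 0.0113, SE 0.15) and *Aldh1l1* (cytosolic, -1.66, adjusted p = 0.015, SE 0.44) were lower. The *Gldc* call was lost without cKO-E embryo A or B (adjusted p of up to 0.0616), and that of *Mthfd2l* without cKO-E embryo A, B or C (up to 0.0897), while *Aldh1l2* was called in 12 of 12 such fits and *Aldh1l1* in the 5 of 12 in which it had enough counts to be tested. The list median was 0.11 beside 0.02 for all genes.

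Among 20 cytosolic aminoacyl-tRNA synthetases, many of them ATF4 targets, 0 was called in cKO-E and 0 in dKO-E against ctrl. An unadjusted p under 0.05 was reached by 3 and 4 of them, all higher, beside 29.8% and 29.6% of all genes. Log2 fold changes were above 0 for 15 and 18 of the 20 against ctrl, and for 16 between the mutants. Their medians were 0.05, 0.11 and 0.06 in the 3 comparisons, beside 0.02, 0.01 and 0.02 for all genes. DESeq2 called 0 in cKO-E and 1 in dKO-E, and so did the likelihood-ratio test. Between the mutants *Vars* (valyl-tRNA synthetase) was called higher in dKO-E, as were 5.59% of all genes. It stood at 71.3 ± 4.85 CPM in cKO-E and 92.4 ± 13.6 in dKO-E (log2 fold change 0.36, adjusted p = 0.015, SE 0.10). This call was lost without cKO-E embryo C (adjusted p = 0.0604). The log2 fold change of *Vars* in dKO-E against ctrl was 0.43 (adjusted p = 0.00232, SE 0.09), past an FDR of 0.05 and not 0.001. *Wars* (0.31, adjusted p = 0.0106, SE 0.08) and *Mars* (0.28, adjusted p = 0.0435, SE 0.09) were also higher there at an FDR of 0.05, which 15.5% of genes passed.

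The unfolded protein response outside ATF4, in a list of 21 genes, had 0 calls in each comparison with ctrl. DESeq2 called 0 and 1, and so did the likelihood-ratio test. An unadjusted p under 0.05 was reached by 1 and 11 genes, beside 29.8% and 29.6% of all genes. In dKO-E 8 of the 11 were lower and 3 higher than in ctrl, and 18 of the 21 log2 fold changes were below 0. At an FDR of 0.05, which 15.5% of genes passed, *Sel1l*, *Xbp1* and *Pdia4* were lower and *Syvn1* was higher in dKO-E. Between the mutants 2 were called lower in dKO-E, beside 9.42% of all genes. They were the chaperones *Hspa5* (-0.35, adjusted p = 0.0496, SE 0.12) and *Pdia3* (-0.24, adjusted p = 0.0392, SE 0.08). The *Hspa5* call was lost without 9 and the *Pdia3* call without 8 of the 12 embryos, and without cKO-E embryo C the log2 fold change of *Hspa5* was -0.18. The medians were 0.05, -0.15 and -0.15 in the 3 comparisons, beside 0.02, 0.01 and 0.02 for all genes.

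**Figure D5:**
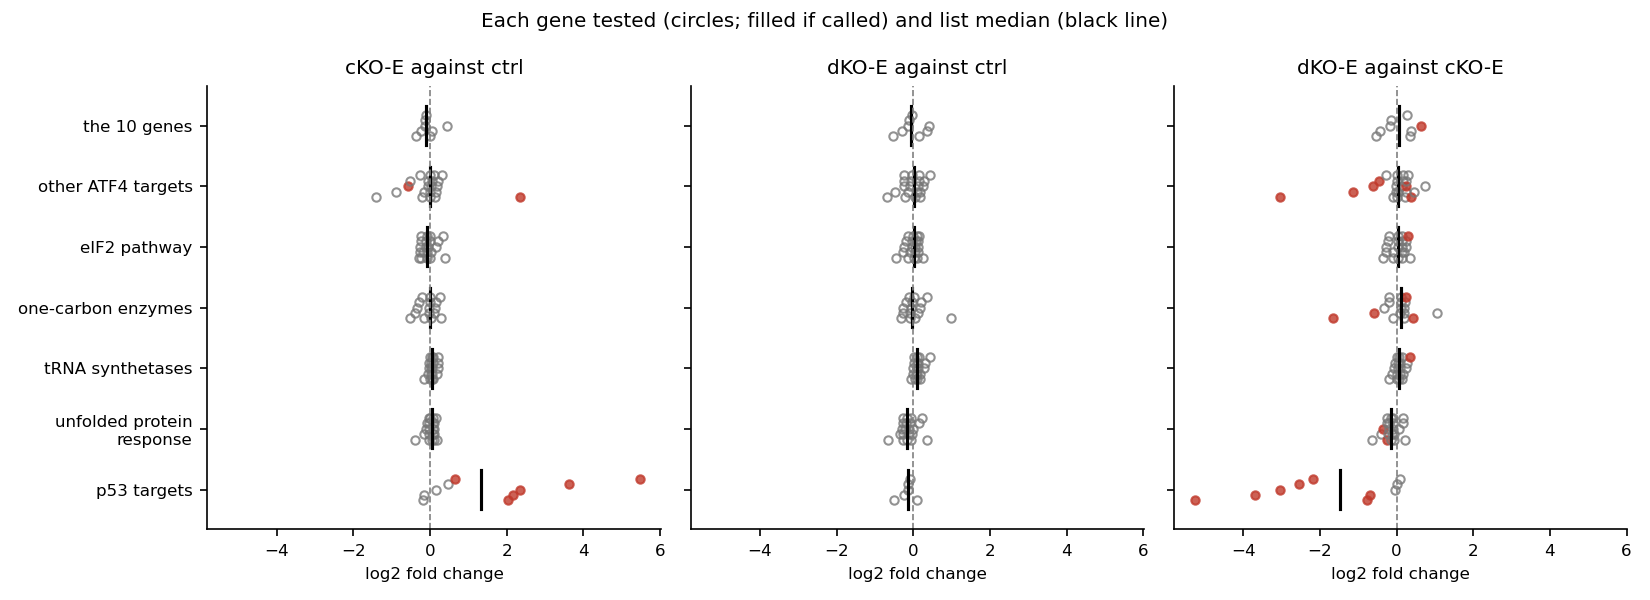
Log2 fold changes of every gene tested in the 10 genes and in 6 lists of other genes (circles, filled if called) with the list median (black line), in the 3 comparisons. Medians of all lists except the p53 targets lie between -0.15 and 0.11, and *Sesn2*, at 2.35 in cKO-E against ctrl, is the highest of the other ATF4 targets.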

How the data were processed

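Embryos were grouped as labelled (7 ctrl, 5 cKO-E, 7 dKO-E). Per the submitters' processing notes, the authors used cutadapt 1.13 for adapters, STAR 2.5.2a for alignment to mm10, UMI-tools 0.5.3 for molecular identifiers and HTSeq 0.6.1p1 (intersection-nonempty; strand setting not given in the sources used here) for counting. The deposited values are whole-number counts, not normalized. Rows naming no gene (23.3 to 31.8% of all counts) were left out. Symbols, positions and exon lengths come from GENCODE M21 (GRCm38), in which 51719 of 51912 identifiers were found.

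Genes were filtered by filterByExpr (minimum count 10), normalized by TMM and tested by the quasi-likelihood test of edgeR 4.0.16 (R 4.3.3, limma 3.58.1), in a separate fit per comparison without covariates, with Benjamini-Hochberg adjustment over all genes tested. Calls were made at FDR 0.001 against ctrl, as in the study, and 0.05 between mutants. SE is the log2 fold change divided by the square root of F. The 95% intervals take the multiple of the SE from a normal distribution and are narrower than the test implies. For *Atf5* between the mutants the interval left out 0 (0.002 to 0.74), while the unadjusted p of the quasi-likelihood test was 0.0633. *Trib3* and *Chac1* were compared by exact permutation tests. Alternatives included DESeq2 1.42.0 and the likelihood-ratio test. The tests were checked on simulated data. Embryos were taken as separate samples by their labels. The level of 3 counts marks a CPM value for each library and is not a measure of counting error.

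The 10 genes and all lists were chosen with earlier results of these data known. Named are the 10 genes, called list members, tested genes within 100 kb of *Ino80* and the 2 genes most alike per gene, of which 1 is not reported here. *Mars* was named after its values were seen. Sequences are from RefSeq (GRCm38.p6). Plots were drawn with matplotlib 3.10.9.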

Additional observations from a re-analysis of the deposited data

Results flagged for a closer look

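*Shmt2* differed between the mutants by 0.65 on the log2 scale, higher in dKO-E (adjusted p = 0.00352, edgeR's quasi-likelihood test), with 7 of 7 dKO-E embryos above all cKO-E embryos. Within single groups, the embryo farthest from the rest was compared with Dixon's limit for 30 sets of values (10 genes in 3 groups). For continuous, normally distributed values chance alone passes about 1 in 20. That rate does not hold for *Trib3* and *Chac1*, which were at or near 0 counts. Past it were 2 sets. *Psat1* in cKO-E embryo D had 145 CPM, where the other 4 cKO-E embryos had 70.4 to 84.5. Its library was the shallowest, with 820915 counts on genes, and *Psat1* had 117 counts there. *Trib3* in ctrl embryo H had 0.458 CPM, which is 1 count, where the other 6 ctrl libraries had 0. A lone count among libraries at 0 passes the limit in any case.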

How the results depend on the processing

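Each comparison was repeated under 16 (cKO-E against ctrl), 15 (dKO-E against ctrl) and 14 (dKO-E against cKO-E) other settings and without single embryos. Of the 8 genes, 0 was called in cKO-E against ctrl throughout. In dKO-E against ctrl the count was 2 at an FDR of 0.05 and 0 otherwise, also without single embryos (0 to 0). Between the mutants it was 1, except for 2 with sex as a covariate, 0 in batch 2 alone and 1 to 2 without single embryos, the second gene being *Phgdh*. The *Shmt2* difference was 0.46 to 0.82. Shared letters were no sign of pairing (correlations of same-lettered embryos from -0.36 to 0.145), and with the letter as a replicate block *Shmt2* was at 0.69 (adjusted p = 0.00643), with no other call among the 8 genes. Litter as a covariate could not be fitted between the mutants, which share no litter. Total counts as the scale moved the median of all genes in dKO-E against ctrl to 0.10. Among genes of the other lists, 117 recomputed values lost their call and 271 kept it, with no change of sign, and 54 counts of calls per list moved by over 1.5 times while 171 did not.

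Of 630 recomputed log2 fold changes of the 8 genes 40 changed sign, none of them a call, and the cause was not tested. In cKO-E against ctrl these were *Atf5* at 0.0017 with the likelihood-ratio test, 0.026 with total counts, 0.012 with upper quartile factors, 0.033 in batch 2 and 0.17 in females, and *Ddit4* at 0.10 in batch 2 and 0.012 in females. With litter as a covariate *Atf4* was at 0.018 and *Psat1* at -0.18, *Psat1* was at -0.040 in batch 2, and *Ddit3* at 0.036 in batch 1. Without single embryos *Atf5* was at -0.11 to 0.079, *Ddit4* at -0.15 to 0.027 and *Psat1* at -0.098 to 0.12. In dKO-E against ctrl *Phgdh* was at 0.067 with total counts, 0.033, 0.015 and 0.29 with batch, sex and litter as covariates, 0.12 with the replicate block and 0.23 in batch 1. There *Psat1* was at 0.21 with litter, 0.070 with the replicate block and 0.15 in batch 1, and *Ddit3* at 0.086 in batch 2. Without single embryos *Asns* was at -0.17 to 0.046 and *Phgdh* at -0.091 to 0.055. Between the mutants *Psat1* was at 0.0016 with sex and 0.034 in batch 1, and *Ddit3* at 0.78 in batch 2 and -0.29 to 0.082 without single embryos. Differences in CPM without single embryos were -0.0076 to 0.117 for *Trib3* in dKO-E against ctrl and -0.131 to 0.276 for *Chac1* in cKO-E against ctrl.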
